A study of Mus musculus with 11 samples.

Results

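Kidneys of mice homozygous for a targeted Cldn16 allele (Cldn16 -/-, KO, 4 mice) were compared with kidneys of heterozygous mice (Cldn16 +/-, Het, 3 mice). These 7 arrays, chosen by the genotype in the labels, are part of a set of 11 bead arrays whose other 4 came from mice with both alleles intact (WT). Each array held total kidney RNA of 1 separately numbered female mouse, and no pooling is stated. They had an age of 8 weeks and were taken on postnatal day 59 (Het 1 and KO 1) or 58 (the other 5). All carried the same mixed background of 129S7/SvEvBrd-Hprtb-m2 and C57BL/6N: per the labels they were F2 animals with 1 backcross to C57BL/6N, raised on standard nutrition with no treatment stated. The strain origin of each animal's chromosomes is therefore not fixed by its genotype at Cldn16. Kidneys were frozen without their poles, and RNA was amplified to biotinylated cRNA.

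In the thick ascending limb of Henle's loop, claudin-16 sits in the junctions between cells and helps to form the paracellular path for magnesium and calcium. Magnesium and calcium that pass this segment can still be reabsorbed through cells further downstream, in the distal convoluted and connecting tubules, by apical channels such as TRPM6 and TRPV5 and basolateral exchangers and pumps. In humans, loss of both alleles causes renal magnesium and calcium wasting. The comparison of KO with Het kidneys asks what differs when the remaining intact copy is altered as well. In whole tissue, fewer cells of a type and less RNA per cell cannot be told apart.

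Intensities were background-corrected, put on the log2 scale and quantile normalized, and a difference of 1 on this scale is a doubling. Of 45281 probes, 22856 were detected (detection p under 0.05) on at least 3 arrays and entered the test, and 12179 genes had at least 1 of them. The 7 arrays were alike: each detected 41.7% to 43.6% of its probes at a detection p under 0.01, and pairwise correlations over tested probes ran from 0.982 to 0.991. KO 2 and Het 3 lay at opposite ends of the 1st principal component, which held 27.1% of the variance of the 7 arrays. The arrays were on 2 slides, with Het 1, Het 2, KO 1 and KO 2 on the 1st and Het 3, KO 3 and KO 4 on the 2nd. On both slides each genotype had its own positions, so position and genotype cannot be told apart.

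No probe passed the threshold, an adjusted p of 0.05 in limma (Benjamini-Hochberg over all tested probes, 0% called). The smallest adjusted p was 0.0944. At an unadjusted p under 0.05, 1243 probes differed (5.44%), of which 637 were higher (2.79%) and 606 lower (2.65%) in KO, where 1142.8 would be so with no effect at all. At an unadjusted p under 0.001 there were 31 probes (0.136%) against 22.9. Counted by gene with its brightest probe, 653 genes lay under 0.05 (5.36%), 368 higher (3.02%) and 285 lower (2.34%). The groups did not overlap for 1415 probes (6.19%), 726 higher (3.18%) and 689 lower (3.01%) in KO, or for 762 genes (6.26%), and the median difference of all genes was 0.01, with a 5th percentile of -0.28 and a 95th of 0.29. Every difference below is therefore a described value that failed the correction, and an unadjusted p is given only to rank it.

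**Figure D1:**
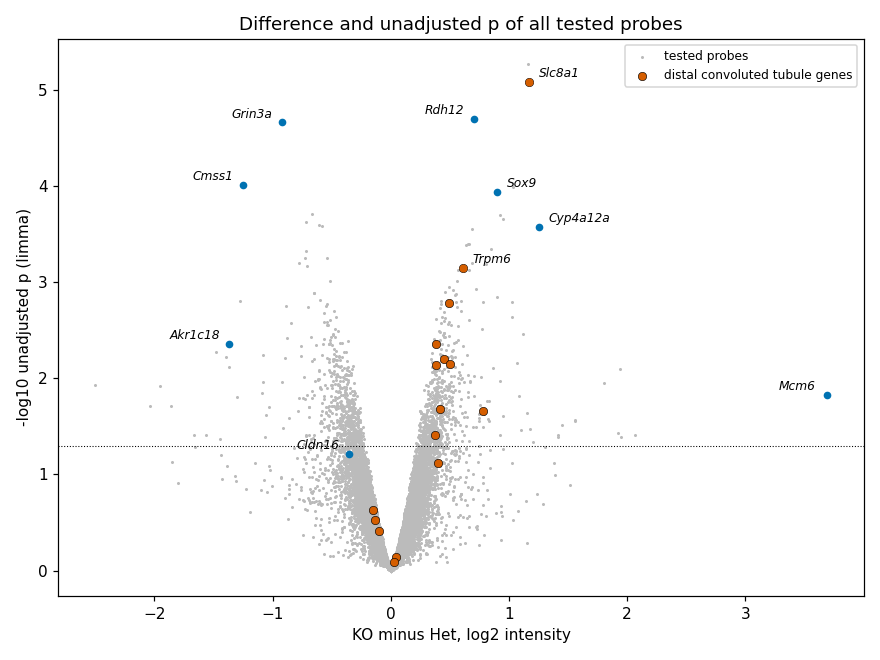
Each point is 1 of the 22856 tested probes. The horizontal axis gives the KO minus Het difference in log2 intensity and the vertical axis the -log10 of the unadjusted p from limma; the dotted line marks 0.05, orange points are the brightest probes of the 16 distal convoluted tubule genes and blue points other named genes. An Slc8a1 probe lies near the top at a difference of 1.17, Grin3a has the smallest p among genes lower in KO, and Mcm6 at the far right has a difference of 3.69 with a p of 0.0148.

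The only Cldn16 probe of the array (ILMN_2954714, chromosome 16) gave a detected signal everywhere. It read 9.27, 9.37 and 9.36 in the Het kidneys and 9.34, 8.58, 8.85 and 9.14 in the KO kidneys. KO 1 lay within the Het values and the other 3 KO arrays below them, so the groups overlapped. The difference was -0.36 ± 0.17 (SE; unadjusted p = 0.0607, adjusted p = 0.915 in limma), and the exact two-sided permutation test gave p = 0.114, where the smallest p that 4 against 3 arrays allow over 35 arrangements is 0.0571. WT kidneys read 9.60, 9.16, 9.67 and 9.58. No source used here places the probe relative to the altered part of the gene, so its signal does not check the labels.

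The genes of the distal convoluted tubule were the list that lay highest in KO kidneys. Of its 20 entries, 17 matched a symbol of the array and 16 were measured. In KO, 13 of the 16 were higher, against 52.4% of all genes. An unadjusted p under 0.05 was found for 10, all of them higher, against 3.02% of all genes. For 7 the KO arrays all lay above the Het arrays, and for 1 below them, against 6.26% of all genes that did not overlap in either direction. The median difference was 0.39, beside 0.01 for all genes. Of all 33 tested probes of these genes, 24 were higher and 9 lower. The list shares 14 of its 16 measured genes with other lists, such as those for calcium, magnesium and sodium handling. The 2 genes in no other list had a median of 0.23. This list and its members were chosen with earlier results of these data known, so its counts are a description and not a test.

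Slc8a1, the basolateral sodium/calcium exchanger NCX1, had the smallest p of all genes. Its brightest probe read 11.70, 11.47 and 11.29 in Het and 12.45, 12.95, 12.75 and 12.46 in KO kidneys. Every KO array exceeded every Het array, and the WT values of 12.08, 11.51, 11.90 and 11.71 also lay below all KO values. The difference was 1.17 ± 0.17 (SE), a 2.25-fold higher intensity (unadjusted p = 8.26e-06, adjusted p = 0.0944 in limma). A 2nd probe gave 1.16 ± 0.16 (adjusted p = 0.0944 in limma), and a 3rd, dim probe gave 0.22 with overlapping groups. The brightest probe differed by 1.12 on the 1st slide alone and by 1.32 on the 2nd. With the background left in, both bright probes passed the threshold (adjusted p = 0.0478 in limma), and they did so in the authors' processed intensities (adjusted p = 0.0485).

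Trpm6, the apical magnesium channel, read 9.07, 8.90 and 8.92 in Het and 9.40, 9.93, 9.34 and 9.62 in KO kidneys at its brightest probe. All KO arrays lay above all Het and all WT arrays (WT 8.86, 8.79, 8.80 and 8.94). The 3 probes of the gene differed by 0.61, 0.84 and 0.64, each without overlap (adjusted p from 0.527 to 0.594 in limma). Cnnm2, a membrane protein needed for renal magnesium handling, read 10.53, 10.33 and 10.44 in Het and 11.06, 10.95, 10.95 and 10.73 in KO kidneys. These groups were separate too, with a difference of 0.49 ± 0.12 (SE; unadjusted p = 0.00164, adjusted p = 0.737 in limma).

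Slc12a3, the thiazide-sensitive sodium chloride cotransporter that defines this segment, read 13.36, 12.80 and 12.97 in Het and 13.34, 13.82, 13.58 and 13.46 in KO kidneys. Het 1 lay just above the lowest KO array, KO 1. The difference was 0.50 ± 0.16 (SE; unadjusted p = 0.00709, adjusted p = 0.889 in limma), and the gene's 5 probes gave differences from 0.32 to 0.60, of which 3 had separate groups. Its regulators lay higher as well: the kinases Wnk4 (0.38) and Wnk1 (0.45) and Klhl3 (0.38), the adaptor through which WNK kinases are degraded, each had an unadjusted p under 0.05. For Wnk1 this held for the brightest probe only, since its other 3 probes differed by -0.23, -0.03 and 0.01. The other Wnk4 probe differed by 0.39 (unadjusted p = 0.0605 in limma), and the groups overlapped at both Wnk4 probes. Stk39, the kinase SPAK that WNK kinases activate, differed by -0.13, and Kcnj16, a basolateral potassium channel subunit, by -0.15 with all KO arrays below the Het arrays.

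Among the calcium proteins of the segment, the apical channel gene Trpv5 read 6.06, 5.98 and 5.66 in Het and 6.29, 6.18, 6.25 and 6.40 in KO kidneys, without overlap (difference 0.38 ± 0.12, SE). Its other probe, also dim, differed by -0.07 with overlap. S100g, which encodes the calcium-binding protein calbindin-D9k, read 9.37, 9.22 and 7.81 in Het and 9.44, 9.42, 9.70 and 9.77 in KO kidneys. The groups did not overlap, yet Het 3 lay far below the other Het arrays, and without it the difference fell from 0.78 to 0.28. Pvalb, the calcium buffer parvalbumin of the early segment, differed by 0.40 with overlap (unadjusted p = 0.0768), and by -0.0022 without the 3 arrays highest in adipose markers. Emx1, a transcription factor gene, differed by 0.41 with overlap.

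**Figure D2:**
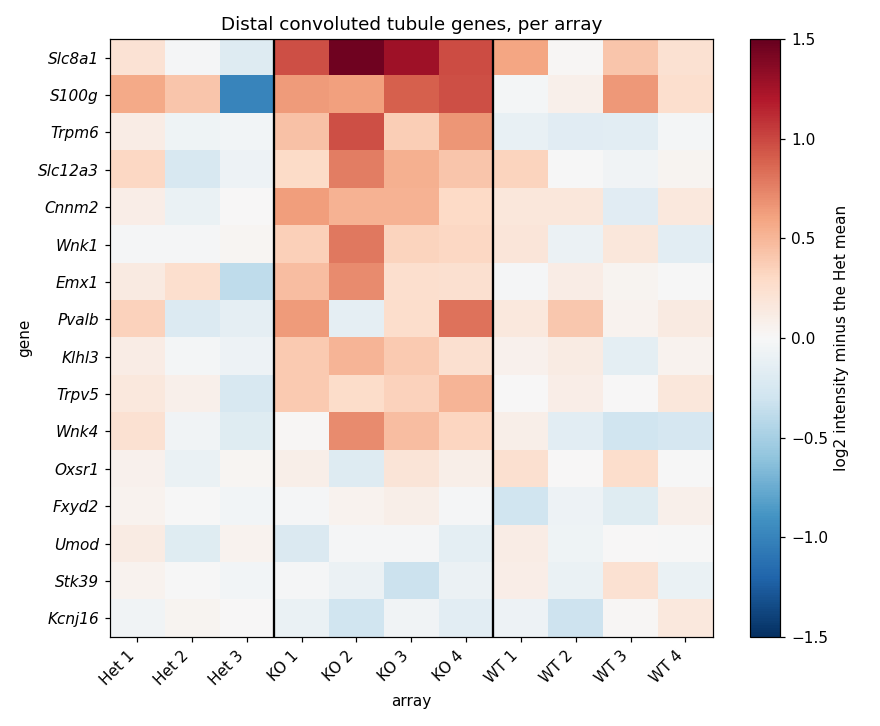
Rows are the 16 measured distal convoluted tubule genes, ordered by their KO minus Het difference, and columns the 11 arrays; colour gives the log2 intensity minus the mean of the 3 Het arrays. The upper 11 rows, from Slc8a1 to Wnk4, are mostly red across the 4 KO arrays, with KO 2 reddest for Slc8a1 and Trpm6, and the lowest value is S100g on Het 3.

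**Figure D3:**
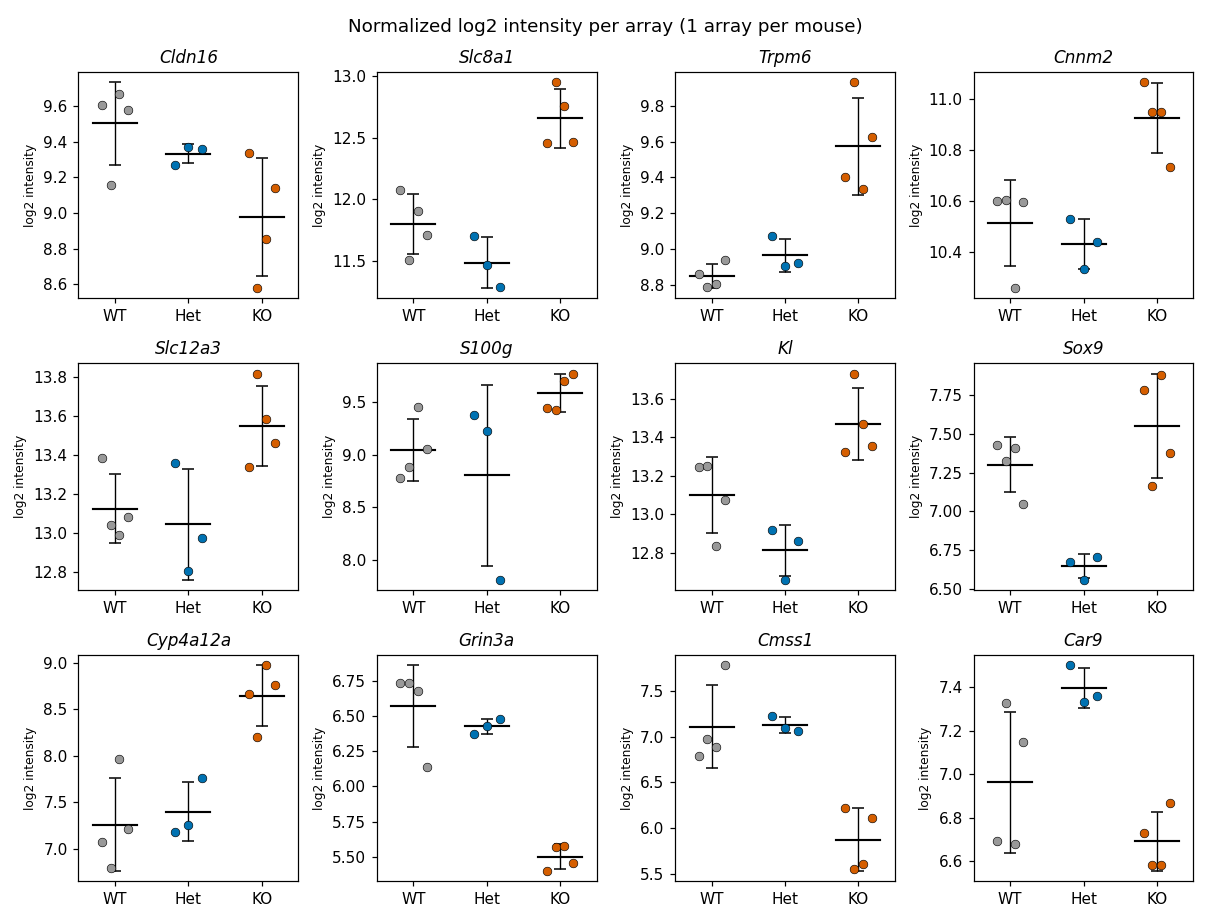
Points are single arrays, the long line is the group mean and the bars are 1 SD (n = 4 WT, 3 Het and 4 KO); the vertical axis is normalized log2 intensity and each panel has its own range, which does not start at 0. KO and Het points overlap for Cldn16 and Slc12a3 and are separate in the other 10 panels, while the WT points of Cyp4a12a, Slc8a1 and Trpm6 lie beneath all KO points.

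Averaged over the list, an array's values relative to the Het mean were 0.31, 0.42, 0.35 and 0.34 in KO kidneys and 0.16, -0.01 and -0.14 in Het kidneys. All 4 KO arrays thus stood above the Het arrays, among which Het 3 was lowest. The list's median difference was 0.24 on the 1st slide and 0.48 on the 2nd, and it ranged from 0.29 to 0.47 when each array was left out in turn. It was 0.28 without KO 1, KO 4 and Het 3, which had the highest adipose marker scores.

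The wider list of calcium and magnesium genes lay nearer the background. Of 25 measured, 16 were higher in KO, beside 52.4% of all genes. An unadjusted p under 0.05 was found for 7, all of them higher, beside 3.02% of all genes. The median was 0.07, and it ran from 0.02 without Het 2 to 0.20 without KO 2. Beyond the 5 genes that it shares with the distal convoluted tubule, the 7 included Stc1 and Atp13a4. Stc1, the calcium- and phosphate-regulating hormone stanniocalcin-1, read 7.98, 8.04 and 7.72 in Het and 8.34, 8.35, 8.46 and 9.47 in KO kidneys (difference 0.74 ± 0.30, SE). The groups were separate, and KO 4 stood well above the other KO arrays; without it the difference was 0.47. Atp13a4, a cation-transporting ATPase gene, differed by 0.49 with overlap. Trpv6, the other apical calcium channel of the family, differed by 0.30, and Atp2b1, a plasma membrane calcium pump, by 0.23. Both had overlap and an unadjusted p above 0.05. The Trpv6 probe was dim, with a detection p under 0.01 on 1 of 3 Het and 3 of 4 KO arrays.

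Of 18 measured genes for vitamin D, parathyroid hormone and phosphate, 11 were higher, beside 52.4% of all genes (median 0.04). An unadjusted p under 0.05 was found for 2, both higher, beside 3.02% of all genes. Kl, the FGF23 co-receptor klotho, which is made in the distal tubule, read 12.92, 12.66 and 12.86 in Het and 13.32, 13.73, 13.47 and 13.36 in KO kidneys. The groups were separate at both of its probes, with differences of 0.66 ± 0.14 (SE; unadjusted p = 0.0004, adjusted p = 0.527 in limma) and 0.62. Vdr, the vitamin D receptor, differed by 0.39 with overlap (unadjusted p = 0.0326). Cyp27b1, which makes active vitamin D, spread widely: 7.81, 6.19 and 5.76 in Het and 8.50, 6.80, 7.37 and 7.47 in KO kidneys. Cyp24a1, which breaks it down, read 10.41, 11.46 and 9.87 in Het and 9.69, 9.66, 10.27 and 10.28 in KO kidneys. Both overlapped, with differences of 0.95 and -0.61 and unadjusted p of 0.0540 and 0.147 in limma.

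In the thick ascending limb itself, the segment in which Cldn16 is expressed, 8 of 18 measured genes were higher and 10 lower in KO. The median was -0.02, and 52.4% of all genes were higher. Its defining genes differed little at their brightest probes, which read about 14 for Umod, Slc12a1 and Cldn10 and lower for Cldn19 and Casr. Umod, which encodes uromodulin, differed by -0.10 ± 0.11 (SE; 95% interval -0.34 to 0.14). Slc12a1, the furosemide-sensitive cotransporter, differed by 0.07 ± 0.11, and its other 5 probes by -0.61 to 0.01, all with overlap. Cldn19, the claudin that partners claudin-16, differed by -0.03 ± 0.11 (0.26 at a dimmer probe), Cldn10, the claudin of the sodium-selective pathway of this segment, by -0.11 ± 0.12, and the calcium-sensing receptor Casr by -0.01 ± 0.12. The intervals of these genes all included 0, which does not show that the groups were equal. The 3 members with an unadjusted p under 0.05 were Wnk1, Tmem207 and Ppp1r1b, beside 5.36% of all genes in either direction.

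Tmem207, the immediate neighbour of Cldn16 on chromosome 16 and likewise a thick ascending limb transcript, read 7.32, 7.23 and 6.95 in Het and 6.68, 6.59, 6.99 and 6.64 in KO kidneys. KO 3 lay just above Het 3, and the other KO arrays lay below all Het arrays (difference -0.44 ± 0.16, SE; unadjusted p = 0.0158, adjusted p = 0.889 in limma). Ppp1r1b, the phosphatase inhibitor DARPP-32, was lower without overlap: 11.14, 10.83 and 11.03 in Het against 10.76, 10.65, 10.74 and 10.79 in KO kidneys (difference -0.26 ± 0.11, SE). Its other 2 probes, both dimmer, overlapped, at -0.20 and 0.03. The WT values of Ppp1r1b, 11.37, 11.22, 11.07 and 11.26, also lay above all KO values.

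Of 23 claudin and tight junction genes, 12 were higher and 11 lower, where 52.4% of all genes were higher. Cldn8, a claudin of the distal nephron and collecting duct, read 6.06, 6.19 and 5.54 in Het and 6.47, 6.88, 6.21 and 6.28 in KO kidneys, without overlap (difference 0.53 ± 0.19, SE, unadjusted p = 0.0140 in limma). WT kidneys read 6.19, 6.39, 6.10 and 6.49, with WT 2 and WT 4 among the KO values. F11r, the junctional adhesion molecule A, a gene of chromosome 1, differed by 0.47 with overlap. It read 8.71, 8.75 and 8.47 in Het and 8.59, 9.28, 9.40 and 9.17 in KO kidneys. WT kidneys read 8.74, 9.14, 9.55 and 9.16. The low arrays were thus WT 1, the Het arrays and KO 1, as at the chromosome 1 genes described below.

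In the collecting duct list 14 of 19 genes were higher, beside 52.4% of all genes, and 4 of them had an unadjusted p under 0.05, beside 3.02%. The median was 0.11, with 0.21 on the 1st slide and -0.04 on the 2nd. Scnn1g, the gamma subunit of the epithelial sodium channel, read 10.72, 10.58 and 10.75 in Het and 11.19, 11.33, 11.07 and 10.98 in KO kidneys. The groups were separate (difference 0.46 ± 0.11, SE; unadjusted p = 0.00127, adjusted p = 0.737 in limma), while the alpha and beta subunits Scnn1a and Scnn1b differed by 0.01 and 0.11. Gata3, a transcription factor of the principal cell, was also separate, at 8.48, 8.86 and 8.89 against 9.17, 9.55, 9.01 and 9.29.

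Aqp2, the vasopressin-regulated water channel, read 9.70, 10.31 and 10.87 in Het and 11.17, 11.52, 10.49 and 11.14 in KO kidneys, with overlap (difference 0.79 ± 0.31, SE; unadjusted p = 0.0235). The difference was 1.33 on the 1st slide and -0.05 on the 2nd. Elf5, a transcription factor found with Aqp2 in principal cells, followed the same order of slides, with 1.47 and 0.31. Aqp3, the basolateral water channel of the same cells, differed by -0.21.

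Of the 19 water handling genes, 13 were higher, beside 52.4% of all genes. An unadjusted p under 0.05 was found for 2, both higher, beside 3.02% of all genes. Ptges, which makes prostaglandin E2, had the smallest p among the 19. It read 6.97, 7.20 and 6.90 in Het and 7.84, 7.59, 7.52 and 7.88 in KO kidneys, and WT kidneys lay at 6.98, 6.53, 6.77 and 6.64. All KO values exceeded all Het and WT values (difference 0.69 ± 0.14, SE; unadjusted p = 0.000279, adjusted p = 0.426 in limma). A dimmer probe differed by 0.22 with overlap. Of 19 genes for renin, aldosterone and sodium handling, 16 were higher, beside 52.4% of all genes (median 0.07). The 5 with an unadjusted p under 0.05, all higher, were Scnn1g, Klhl3, Wnk1, Slc12a3 and Wnk4, beside 3.02% of all genes. Sgk1, an aldosterone-induced kinase gene, differed by 0.19 with overlap. In intercalated cells 3 of 14 genes were higher, beside 52.4% of all genes. Slc4a9, an anion transporter of the type B cell, differed by -0.42 with overlap.

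Among probes with separate groups, an unadjusted p under 0.01 and detection on all 7 arrays, 50 genes were higher and 35 lower in KO. The 12 highest included Slc8a1, Trpm6, Kl and Ptges. Cyp4a12a, an arachidonic acid omega-hydroxylase, had the largest difference of these: 7.18, 7.26 and 7.76 in Het and 8.66, 8.20, 8.97 and 8.76 in KO kidneys (1.25 ± 0.25, SE; adjusted p = 0.426 in limma). The probe may not separate it from its near-identical copy Cyp4a12b. Its WT values, 7.07, 6.79, 7.96 and 7.21, lay below all KO values.

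Sox9, a transcription factor of tubule development and repair, read 6.68, 6.56 and 6.71 in Het and 7.78, 7.16, 7.88 and 7.38 in KO kidneys (0.90 ± 0.17, SE; unadjusted p = 0.000115, adjusted p = 0.375 in limma). Of the WT kidneys, at 7.43, 7.32, 7.41 and 7.05, 3 lay among the KO values and WT 4 just below them, and the 3 Het arrays stood alone at the low end. The remaining high genes were Tox3 (0.81) and Phactr1 (0.78), an HMG-box and an actin regulator gene, Ccm2 (0.67), an adaptor of endothelial junctions, Sgms2 (0.66), a sphingomyelin synthase, Phlda1 (0.61), and Sdk1 (0.59), an adhesion molecule.

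Of these 35 lower genes, the largest differences were those of Akr1c18, Cox6a2, Cmss1 and Grin3a. Akr1c18, a hydroxysteroid dehydrogenase that inactivates progesterone, read 13.32, 12.73 and 12.53 in Het and 10.52, 11.69, 11.53 and 12.24 in KO kidneys. The groups were separate but the KO values spread widely (-1.37 ± 0.40, SE; adjusted p = 0.879 in limma). Cox6a2, a cytochrome oxidase subunit known from muscle, differed by -1.28 ± 0.32, again with one KO array, KO 2 at 7.66, below the rest.

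Grin3a, a subunit of NMDA-type glutamate receptors, was the tightest of the lower genes: 6.37, 6.43 and 6.48 in Het against 5.40, 5.57, 5.58 and 5.46 in KO kidneys. The groups lay far apart relative to their spread, and the WT values of 6.73, 6.73, 6.68 and 6.13 stood above all KO values. The difference was -0.92 ± 0.14 (SE; unadjusted p = 2.17e-05, adjusted p = 0.124 in limma). It passed the threshold in 1 alternative, the fit without WT 4 (adjusted p = 0.0230), in which its difference is unaltered and only the estimated spread is smaller. Rdh12, a retinol dehydrogenase gene, had the same adjusted p in the other direction, at 5.16, 5.14 and 5.05 in Het against 5.85, 5.85, 5.79 and 5.78 in KO kidneys (0.70 ± 0.11, SE; adjusted p = 0.124 in limma), and was named after its values were seen.

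Cmss1, a gene of ribosome assembly, read 7.22, 7.09 and 7.06 in Het and 6.22, 5.55, 5.62 and 6.12 in KO kidneys (-1.25 ± 0.23, SE; unadjusted p = 9.66e-05, adjusted p = 0.375 in limma). Car9, a hypoxia-induced carbonic anhydrase, differed by -0.71 ± 0.16, and by -0.60 at its dimmer probe. The brightest probe read 7.50, 7.33 and 7.36 in Het and 6.73, 6.58, 6.58 and 6.87 in KO kidneys. Its WT values were 6.69, 7.32, 6.68 and 7.15, all below the Het values, with WT 1 and WT 3 among the KO values. Of the 17 measured genes of the hypoxia list 11 were higher, beside 52.4% of all genes. An unadjusted p under 0.05 was found for 2, both lower, beside 2.34% of all genes. The other low genes were Cd200 (-0.89, with -0.32 and -0.52 at its other probes), a ligand that restrains myeloid cells, Rarres2 (-0.77, with -0.56 and 0.17 at its other probes), which encodes chemerin, Rab26os (-0.76) and C430049B03Rik (-0.72), named only, F5 (-0.76), clotting factor V, Hebp1 (-0.65), a heme-binding protein, and Npb (-0.61), neuropeptide B.

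Of genes that an earlier look at these data had marked in KO against WT kidneys, a comparison that uses the same 4 KO arrays, Odf4, a sperm tail gene, differed by -0.58 and -0.67 at its probes, Abhd10, a thioesterase gene, by -0.54 at its brightest probe and Antxr1, an anthrax toxin receptor, by 0.42, all with separate groups. The other Abhd10 probe, which is dim, differed by -0.02 with overlap. Tnn, the matrix protein tenascin-N, differed by 0.66, with KO 3 at 5.68 inside the Het values of 5.31, 5.81 and 5.67. The brighter probe of Gm773 had a detection p under 0.01 on 0 of 4 KO and 2 of 3 Het arrays and was at least 1.13-fold lower in KO. Tsc22d1, a transcription regulator gene, shows how a single probe can stand apart: one probe differed by 0.95 (unadjusted p = 0.00022) and the gene's brightest probe by 0.13; it too was named after its values were seen.

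Single probes detected in only one of the groups were dim, and they do not show that the gene was silent in the other group. At a detection p under 0.01, 14 probes with a symbol were detected on all 4 KO and 0 Het arrays, and 15 on all 3 Het and 0 KO arrays. The named probes in the first direction belong to Cfap126, a cilium gene, Ppm1k, a mitochondrial phosphatase, Trim33 and Ptprg, and were at least 1.65-, 1.34-, 1.14- and 1.21-fold higher than the dimmest detectable signal or the probe's own value. In the second direction, single probes of Csta2, a cystatin, Ppt2, a lysosomal thioesterase, Camk2g, a calcium-regulated kinase, and Aoc2, an amine oxidase, were at least 1.39-, 1.22-, 1.24- and 1.17-fold lower in KO. Adjusted p in limma ran from 0.426 to 0.889 for these 8 probes. The brightest probes of 4 of these genes were detected on all 7 arrays and overlapped between the groups: they differed by -0.02 for Ppm1k, 0.05 for Trim33, 0.14 for Ppt2 and -0.02 for Camk2g.

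The 33 lists, of which 21 had a median above that of all genes, differed mostly by little. MHC class II genes had the next highest median among lists with at least 5 measured genes, 0.29, with 7 of 9 higher (52.4% of all genes) and 3 at an unadjusted p under 0.05 in that direction (3.02% of all genes). The median was 0.12 without Het 3 and 0.06 on the 1st slide alone. Ciita, the activator of these genes, differed by 0.58 without overlap, while H2-Aa (0.29) and H2-Ab1 (0.40) overlapped and were 0.14 and 0.12 without Het 3. Of 12 measured immune cell genes 4 were higher. Extracellular matrix genes were higher in 20 of 27 cases (median 0.12, but -0.02 without Het 2 and 0.01 without KO 3), with the basement membrane collagens Col4a1 and Col4a2 at 0.35 and 0.33. Mean values in WT, Het and KO were 11.70, 11.31 and 11.66 for Col4a1 and 9.93, 9.86 and 10.19 for Col4a2.

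The circadian clock list had the lowest median, -0.19, but it was -0.04 without Het 2 and -0.38 without Het 1, and the blood list was lower without Het 2, KO 1 or KO 4. Arntl, the activator BMAL1, differed by 0.78, and Dbp and Ciart, output and repressor genes of the clock, by -0.42 and -0.69. Of these 3, Ciart alone had separate groups, and its WT values of 8.61, 8.84, 9.45 and 7.71 ran from below the KO values to among the Het values. No source used here gives the time of day of dissection. The podocyte, immune cell, interferon and cholesterol synthesis lists lay between -0.11 and -0.05, and the proximal tubule, endothelium and mitochondrial respiratory chain lists between -0.02 and 0.07.

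**Figure D4:**
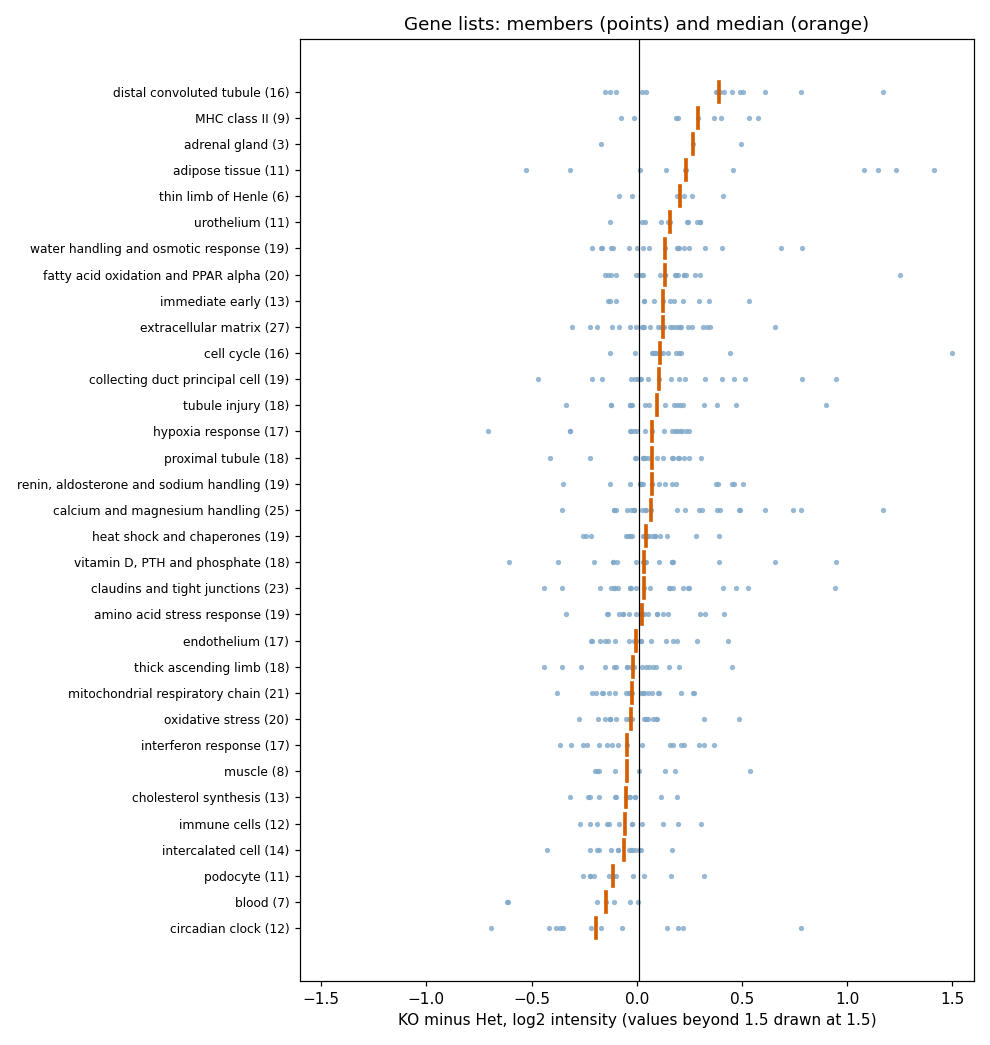
Each row is a gene list with its number of measured genes; blue points are the KO minus Het differences of its genes in log2 intensity, orange bars the list medians, and the black line the median of all genes at 0.01. The distal convoluted tubule is the top row at 0.39 and the circadian clock the bottom row at -0.19, and single genes such as Mcm6 in the cell cycle list lie far from their list's median.

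Markers of tissues other than kidney varied between mice. The adipose score, the list mean minus the Het mean, was 1.33 in Het 3, 1.33 in KO 1 and 1.04 in KO 4, and between -0.77 and -0.09 in the other 4 arrays. Adipoq, the fat cell hormone adiponectin, read 6.88, 7.33 and 10.80 in Het and 10.70, 8.03, 8.80 and 10.41 in KO kidneys. Ucp1, which marks brown fat, differed by 1.41 with overlap. Of the 11 measured genes of the list 9 were higher, beside 52.4% of all genes. Yet on the 2nd slide, where Het 3 is the only Het array, Adipoq differed by -1.19. The score of the blood list was -0.66 and -0.68 in KO 2 and KO 3 and between -0.22 and 0.29 in the others. The part of these tissues in other differences was not tested, apart from the values given without the 3 arrays.

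At Cldn16 itself, both copies come from the targeted chromosome in KO mice and 1 copy does in Het mice. How far the segment from that chromosome reaches around Cldn16 in each mouse is given by no source used here. Of the 20 nearest measured genes on each side, 29 of 40 were higher in KO and 11 lower, where 52.4% of all genes were higher, and the median was 0.04. An unadjusted p under 0.05 was found for 4 higher genes and 1 lower, Tmem207, beside 3.02% higher and 2.34% lower of all genes. The 4 were Rtp1, a receptor-transporting protein gene (detected on 0 of 3 Het arrays, at least 1.07-fold higher), Atp13a4 (0.49), Xxylt1, a xylosyltransferase gene (0.25), and Pigz, a mannosyltransferase gene (0.55). Xxylt1 was narrow, with Het at 7.30, 7.29 and 7.17 and KO at 7.46, 7.52, 7.51 and 7.52, and did not overlap. Over the whole of chromosome 16, 30 of 403 genes lay under 0.05 (7.44%), a share that chromosomes 1, 6 and 14 exceeded (7.63%, 8.14% and 8.47%). Under 0.01 lay 7 of its genes (1.74%), a share that only chromosome X exceeded (1.87%). Chromosomes 1, 6 and 14 then had 1.25%, 1.63% and 1.21%. Other genes described here are on chromosome 16 too, outside these 40 genes. Cmss1, Cd200, Abhd10 and Csta2 were lower in KO, Ciita and Cldn8 were higher, and Casr differed by -0.01.

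Large differences were often not shared by all mice of a group. At least 1 on the log2 scale separated the group means of 73 probes, 36 higher and 37 lower. Of these, 18 had separate groups, beside 6.19% of all tested probes. On chromosome 1, which held 1058 of the 22856 tested probes, there were 13 of the 73. A set of 87 tested probes (0.381%), defined after the data were seen, included 29 of the 73. In this set a probe's 11 values fell into a low and a high cluster. The gap between the clusters was at least 1 and wider than either cluster. Mcm6, a subunit of the replication helicase, had the largest difference of all: 4.36, 4.36 and 4.26 in Het and 4.36, 8.89, 9.71 and 9.09 in KO kidneys. It was at background on all Het arrays and on KO 1, and bright on the other 3 KO arrays, and KO 1 lay beside the Het arrays. WT kidneys were divided in the same manner, at 4.31, 9.05, 9.64 and 9.92. The intensity in KO was at least 7.51-fold higher by group mean, and the unadjusted p was 0.0148 (adjusted p = 0.889 in limma).

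The same arrays were low at probes of other genes of chromosome 1: WT 1, all 3 Het arrays and KO 1 were low at Gin1, Mcm6 (all 3 probes), Fmo1, a flavin monooxygenase, and Apoa2, an apolipoprotein, and WT 2 to WT 4 and KO 2 to KO 4 were high. Cops8, a signalosome subunit that precedes them on the chromosome, had Het 3 on the high side instead. The brightest probes of Fmo1 and Apoa2 did not divide the arrays and differed by -0.03 and -0.11. The dimmer Apoa2 probe read 4.48, 4.46 and 4.47 in Het and 4.39, 6.55, 7.43 and 7.19 in KO kidneys. Cfap126, named above for a probe not detected in Het, is on chromosome 1 as well and was lowest in WT 1 (4.86) and in KO 1 (5.15) within their groups. No source used here gives the strain origin of chromosome 1 in each mouse, and its part in these values was not tested.

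**Figure D5:**
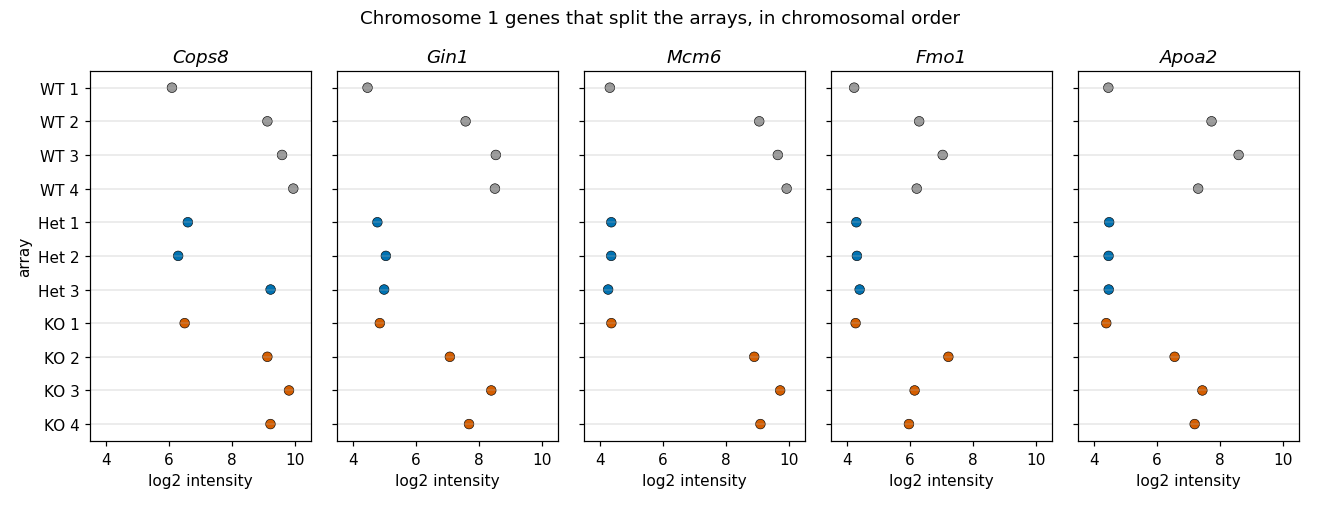
Each panel is a gene of chromosome 1, in chromosomal order from left to right; the horizontal axis is log2 intensity and the rows are the 11 arrays (grey WT, blue Het, orange KO). From Gin1 to Apoa2 the same 5 arrays (WT 1, Het 1 to Het 3 and KO 1) lie low and the other 6 high, and at Cops8 Het 3 lies high.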

How the data were processed

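Kidney RNA of 11 mice (4 WT, 3 Het, 4 KO, grouped by the genotype label, n = mice) was measured on 45281 probes. Per the file headers, the values the authors deposited are an intensity on a linear scale and a detection p-value for each probe and array. The submitters' processing notes name BeadStudio, and no source used here gives the background treatment. The medians of the 7 compared arrays ran from 70.3 to 76.6, so these intensities were not normalized between arrays. The authors' processed intensities, a further deposited table on a linear scale, ranked the probes of each array alike (lowest rank correlation 1), and quantile normalization of the first table came within a median of 0.00392 units of it; it served as an alternative.

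Intensities were corrected with limma 3.58.1 (R 4.3.3) by normexp, with negative controls inferred from the detection p-values and an offset of 16, put on the log2 scale and quantile normalized. A probe was tested if its detection p lay under 0.05 on 3 or more of the 11 arrays. All 11 arrays entered 1 model with a mean per genotype (lmFit, eBayes), from which KO minus Het was read; p-values are two-sided and Benjamini-Hochberg adjusted over the tested probes. The offset makes differences of dim probes smaller. The number of arrays limits the precision. The procedure was tested on simulated data. Of the tested probes, 19265 had 1 gene symbol in the platform annotation and 3591 none or several. The files name no genome build; gene order was read from a table of mouse assembly GRCm38.p6, and no coordinates are given. No sequences are shown, since no result turned on one.

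Below-background folds compare the brighter group's mean with, per array of the dimmer group, the higher of the probe's value and the lowest detected signal. Named genes were the 12 highest and 12 lowest with separate groups, an unadjusted p under 0.01 and detection on all 7 arrays, up to 4 probes present in one group only per direction, a fixed set, and in each list its key genes and the 2 of smallest p; of these, those that the text describes are printed. Rdh12, Tsc22d1 and the chromosome 1 genes were chosen after their values were seen. The members and lists were chosen with earlier results of these data known. Alternatives changed the background, normalization, filter, arrays, slide, postnatal day, array weights and probe per gene.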

Additional observations from a re-analysis of the deposited data

Results flagged for a closer look

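Of 233 sets of 4 arrays examined (named genes in KO and in WT, list scores in KO), 12 had 1 array that stood apart from the other 3 by more than Dixon's 95% critical ratio, where chance gives about 5%. In KO kidneys these were KO 2 for Wnk1 (12.74, above the others), Rab26os (7.78, below) and Antxr1 (7.10, above), KO 4 for Stc1 (9.47, above), KO 1 for Mcm6 (4.36, below) and KO 3 for Rtn1, a reticulon gene (6.75, below). In WT kidneys they were WT 3 for Cnnm2 (10.26, below), Elf5 (8.28, above) and Gata3 (8.93, above), WT 4 for Grin3a (6.13, below) and Adipoq (8.09, below), and WT 1 for Mcm6 (4.31, below).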

How the results depend on the processing

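In 20 of 25 alternatives the count of called probes stayed at 0. It was 2 with no background correction and in the authors' processed intensities (both Slc8a1, adjusted p = 0.0478 and 0.0485 in limma), 6 on slide 1 alone, 8 on slide 2 alone, and 0 to 1 when each array was left out in turn, the 1 being Grin3a without WT 4. The slide 1 calls included Rtn1 (1.74), and the slide 2 calls Mcm6 (5.14) and Gin1 (3.04), in a fit with 1 Het array that is assumed to vary like the other groups. Probes at an unadjusted p under 0.05 were 1243, 1014 to 1474 when leaving out arrays, and 2257 with all probes tested. Cldn16 ran from -0.60 (without the 3 arrays highest in adipose markers) to -0.22 (without KO 2), with adjusted p from 0.748 to 1.00 in limma. Lists above the median of all genes were 21, and 14 on slide 2 alone. The median near Cldn16 ran from 0.02 to 0.08. Several list medians near 0 turned, among them those of extracellular matrix genes (-0.02 without Het 2), collecting duct genes (-0.04 on slide 2 alone), vitamin D genes (-0.02 without Het 3) and the hypoxia list (-0.01 when the probes of a gene were averaged).

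Some directions turned. On slide 2 alone these were those of Cyp24a1 (0.41), Slc12a1 (-0.027), Aqp2 (-0.051), Ucp1 (-0.33) and Adipoq (-1.19); on slide 1 alone, Casr (0.0996) and Aqp3 (0.0825); with a median shift, Slc12a1 (-0.0489), Cldn19 (0.00689) and Casr (0.0214); without the 3 adipose-high arrays (chosen after seeing the data), Pvalb (-0.0022), Umod (0.0057) and Cldn19 (0.0442). Casr also turned with slide as a block (0.0195) and postnatal day as a covariate (0.0019), Cldn19 with array weights (0.0102), and on leaving out each array in turn Slc12a1 ran from -0.00071 to 0.121, Cldn19 from -0.100 to 0.0342 and Casr from -0.0547 to 0.0533. The cause was not tested. No paired analysis was possible because the labels give each mouse its own number, and replicate numbers here follow accession order.

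All alternatives share mice, so they do not replicate each other. Dim probes are limited by signal over background, and the offset shrinks their differences.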

Other observations

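The division of the arrays into a low and a high cluster seen on chromosome 1 was found at 63 named genes on 16 chromosomes. Of 47 pairs of such genes next to each other in order on a chromosome, 20 divided the 11 mice in the same way. On chromosome 9, 6 genes (Atp2c1, Pik3r4, Wdr82, Rpl29, Spink8 and Epm2aip1) were high in Het 2, KO 2 and KO 3 and low in the other 8 mice. On chromosome 15, 5 genes (Tomm22, Gramd4, Methig1, Higd1c and Pou6f1) were low in WT 2, Het 1, KO 1 and KO 4. On chromosome 7, 3 genes (Folh1, Ctsc and Trim30a) were low in WT 4, Het 3, KO 1 and KO 4. These divisions cross the Cldn16 genotypes, and so does that of Gin1, Mcm6, Fmo1 and Apoa2 on chromosome 1. The latter put all 3 Het mice on the low side, together with WT 1 and KO 1. Single genes elsewhere also had all 3 Het mice low, among them Aph1c (chromosome 9), 1700123O20Rik (chromosome 14) and Atrnl1 (chromosome 19). All these genes were picked for a division of the arrays after the data were seen, so the counts are a description.

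A few further genes with large differences rested on some of the mice. Abhd1, a hydrolase gene, read 10.93, 10.86 and 11.75 in Het and 7.76, 10.62, 7.75 and 10.78 in KO kidneys, so KO 1 and KO 3 were low and the other KO mice lay just below Het. Inmt, an indole methyltransferase, read 13.36, 13.96 and 13.72 in Het and 11.31, 14.07, 11.71 and 11.87 in KO kidneys, with KO 2 above the Het values. Supt16, a histone chaperone subunit, read 6.09, 6.18 and 6.36 in Het and 8.52, 8.02, 8.36 and 6.18 in KO kidneys, with KO 4 among the Het values. Their adjusted p was between 0.889 and 0.892 in limma.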
